A study of Drosophila melanogaster with 13 samples.

Results

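The genes described here are 9 of the 13893 Drosophila melanogaster genes in the deposited tables, chosen by symbol. They are the sugar transporters Tret1-1, Tret1-2, Glut1, sut1, sut2 and sut3, the trehalose enzymes Tps1 and Treh, and the DNA-binding protein Glut4EF. They have 43 transcripts in the tables. RNA came from pooled, dissected proboscises, which the labels name labellum, the tip of the fly's mouthparts. In the first experiment, flies labelled parental ate a sugar diet or a control diet for 7 days, with 2 libraries a group and 200 proboscises a library. The control diet was standard cornmeal food, and the sugar diet was that food with added sugar. In the second experiment every fly ate the sugar diet for 7 days and carried Gr5a-GAL4, a driver for sweet taste neurons. The OGT RNAi group (5 libraries) also carried a UAS RNAi construct against OGT, the enzyme that adds O-linked N-acetylglucosamine to proteins. The Gal4 control group (4 libraries) carried the driver alone. Each of these libraries was made from 20 proboscises, with another kit than for diet, so kit, input and genotype cannot be told apart between the experiments, and each pair of groups was tested on its own.

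Trehalose is a disaccharide of glucose and the main sugar of insect haemolymph. Tps1 makes it from UDP-glucose and glucose 6-phosphate, largely in the fat body, and Treh, trehalase, splits it back into glucose. Tret1-1 carries trehalose across cell membranes and Glut1 carries glucose, so these proteins set which cells release, take up and use the circulating sugar.

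Library totals ranged from 5632598 to 13884994 estimated counts. At these depths 3 counts, the limit that a count of 0 allows, equal 0.216 to 0.533 CPM (counts scaled to the same library total), and this limit covers counting error only. The fly OGT gene is sxc. Its level was 138, 170.0, 133, 135 and 136 CPM in the OGT RNAi libraries and 163, 142, 170.4 and 174 CPM in the Gal4 controls. The groups overlapped, and the log2 difference was -0.19, with a 95% interval of -0.371 to -0.0043 (edgeR quasi-likelihood test, unadjusted p = 0.0455). This difference missed the threshold after adjustment (edgeR, adjusted p = 0.376). The driver acts in one class of neurons within whole proboscises. The sxc level within those neurons was not measured, and why the groups overlapped was not tested. All 8 neuronal markers were detected in every group. The muscle markers summed to far higher levels than the neuronal ones, with 6056 to 7819 TPM (a level per transcript length) against 69.0 to 206 TPM over all libraries.

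Of the 9 genes, 7 had enough counts to be tested in each comparison, and Tret1-2 and sut3 did not. Levels of different genes were compared as TPM, the share of a transcript in its library after allowing for its length. Glut4EF was highest in the control diet group with 179.6 ± 7.64 TPM (SD, n = 2), followed by Treh with 99.8 ± 2.38, Tps1 with 91.4 ± 8.79, Tret1-1 with 65.5 ± 1.85 and Glut1 with 58.8 ± 3.87. None of these neighbours overlapped in their ranges. In the sugar diet group Glut4EF stood at 164 ± 37.3 TPM and Treh at 67.8 ± 10.8. Tret1-1, Tps1 and Glut1 stood together between 43.8 and 44.6 TPM there, and their ranges overlapped. In the second experiment Treh came first, with 230.3 ± 9.80 TPM in the OGT RNAi group (n = 5) and 222 ± 9.12 in the Gal4 control group (n = 4). Glut4EF came next in both, with 93.0 ± 9.80 and 126 ± 15.1 TPM. In all 4 groups sut1 (6.02 to 13.2 TPM) and sut2 (2.35 to 3.16 TPM) came after these 5 genes, and Tret1-2 and sut3 were last.

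**Figure D1:**
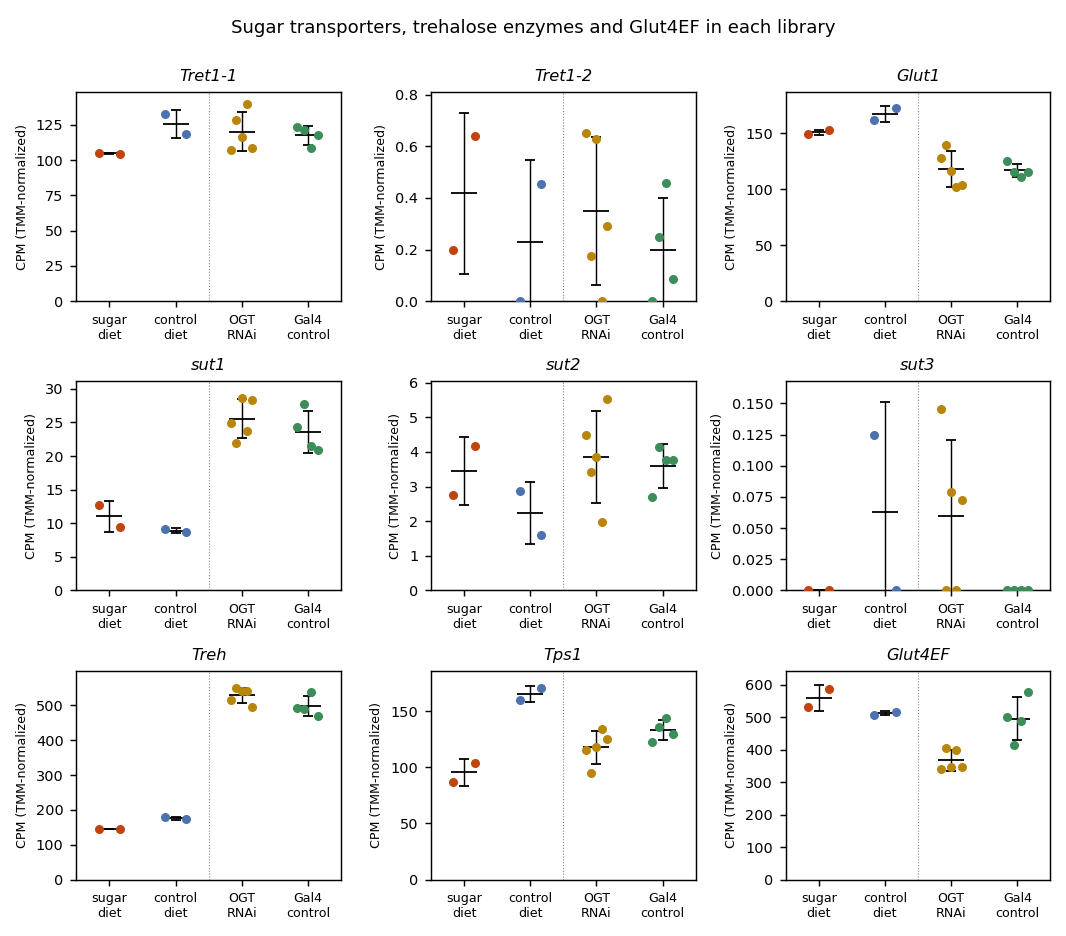
Level of each of the 9 genes in CPM after TMM scaling (y axis, from 0), 1 point per library in 4 groups, with the group mean and SD in black and a dotted line between the experiments. Tps1, Treh, Tret1-1 and Glut1 are lower, and sut1 and Glut4EF higher, in both sugar diet libraries than in both control diet libraries. Glut4EF is lower in the 5 OGT RNAi libraries than in the 4 Gal4 controls.

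The first experiment asked how 7 days on sugar change proboscis RNA. On the sugar diet both trehalose enzymes fell, Tps1 by 1.73-fold and Treh by 1.21-fold, while Glut4EF did not pass the test. Of the 4 tested transporters edgeR called 0, with 1 at an unadjusted p under 0.05, and DESeq2 called 0 of the 3 to which it gave an adjusted p. Over all genes 6.47% of 8825 were called, 275 higher and 296 lower, and 3.35% were called lower. An unadjusted p under 0.05 was found in edgeR for 1564 of the 8825. The count among the members was 2 of 7, both lower. In 6 of the 7 the groups did not overlap, against 47.5% of all tested genes, since 2 libraries separate easily from 2. In pooled tissue, fewer cells of a type and less RNA per cell cannot be told apart.

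Among the transporters, Tret1-1, the trehalose transporter, stood at 105 and 105 CPM on the sugar diet and at 132 and 119 CPM on the control diet. The sugar diet libraries were the lower ones, and the groups did not overlap. The log2 change was -0.26 with a 95% interval of -0.45 to -0.07 (unadjusted p = 0.0105), and it missed the threshold after adjustment (edgeR, adjusted p = 0.11). With library totals alone in place of TMM scaling it was -0.46 and was called (edgeR, adjusted p = 0.00865). That scaling moved the median log2 change of all tested genes to -0.20 and the calls to 101 higher and 848 lower. The gene Arc1 alone held 12.6 and 13.4% of counts on the sugar diet and 7.40 and 7.51% on the control diet. Relative to the shifted median, the Tret1-1 change is close to its value with TMM.

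Glut1, a glucose transporter, was measured at 149 and 153 CPM on the sugar diet and 162 and 172 CPM on the control diet. The groups lay apart by a small margin, and the log2 change of -0.15 (95% interval -0.32 to 0.02) did not pass the test (edgeR, adjusted p = 0.374). It too was called with library totals alone, at -0.35 (edgeR, adjusted p = 0.0401), against the same shifted median.

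The sut genes lie in a row on chromosome 2R and encode transporters of the sugar transporter family. sut1 had 12.7 and 9.43 CPM on the sugar diet and 9.13 and 8.64 CPM on the control diet, and its log2 change of 0.30 did not pass the test (edgeR, adjusted p = 0.541). sut2 had 2.77 and 4.16 CPM against 2.88 and 1.59 CPM, with overlapping groups and a log2 change of 0.66 whose 95% interval ran from -0.22 to 1.54 (edgeR, adjusted p = 0.46). The interval is wide, with a standard error of 0.418 on the log2 scale. Tret1-2 had at most 9.27 estimated counts in any library of either experiment and sut3 at most 2.00, so no fold was formed for them.

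Tps1, which makes trehalose, gave 87.0 and 104 CPM on the sugar diet and 160.2 and 171 CPM on the control diet. Both sugar diet libraries were well below both controls. The log2 change was -0.79 ± 0.0955 (SE), with a 95% interval of -0.99 to -0.59 (edgeR, adjusted p = 4.69e-05). It was called in all 11 alternative settings, with values from -0.99 to -0.67 and adjusted p from 5.87e-19 to 0.0266. In the authors' deposited table the effect for Tps1 was -0.557 on the natural-log scale, with a q-value of 1.87e-06.

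Treh, which splits trehalose, gave 144 and 146 CPM on the sugar diet and 178 and 173 CPM on the control diet. The groups did not overlap, and the replicates of each group lay close together. The log2 change was -0.28 ± 0.0797 (SE), with a 95% interval of -0.44 to -0.11, just past the threshold (edgeR, adjusted p = 0.0489). The direction was the same in 11 alternative settings, and the call was kept in 5 of them, with adjusted p from 0.00543 to 0.477. It was lost without control diet replicate 1 (adjusted p = 0.477) and without control diet replicate 2 (adjusted p = 0.323), where 1 control library is assumed to vary like the others. DESeq2 did not call it either (adjusted p = 0.212). In the authors' deposited table Treh had an effect of -0.203 on the natural-log scale and a q-value of 0.0259.

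The TPM ratio of Treh to Tps1 was 1.70 and 1.43 on the sugar diet, against 1.15 and 1.04 on the control diet. It was higher in both sugar diet libraries, and the groups did not overlap. In the second experiment it ran from 4.08 to 5.97 in the OGT RNAi libraries and from 3.72 to 4.14 in the Gal4 controls, so these groups overlapped.

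Glut4EF, named after the human GLUT4 enhancer factor, stood at 532 and 588 CPM on the sugar diet and at 508 and 517 CPM on the control diet. Its log2 change of 0.13 did not pass the test (edgeR, adjusted p = 0.434), and with library totals alone it was -0.07, close to the same distance above the shifted median of -0.20.

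**Figure D2:**
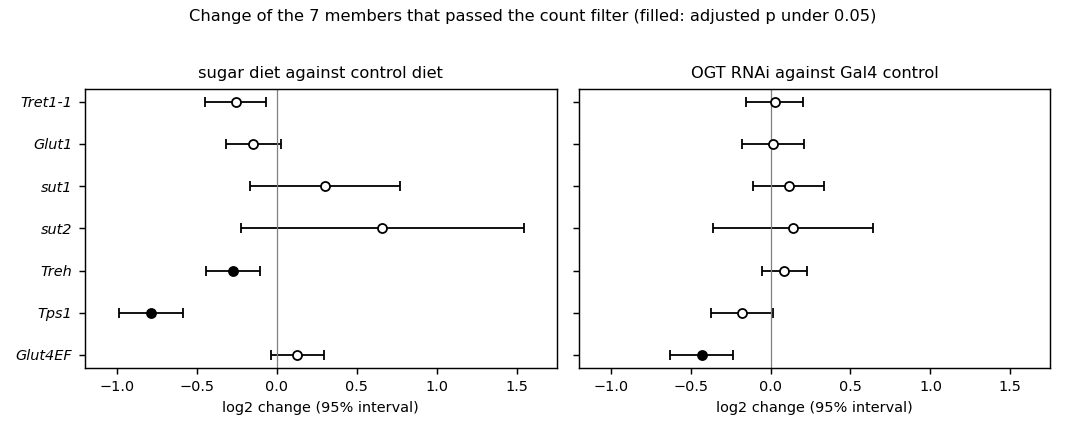
Log2 change (x axis) with its 95% interval for the 7 tested members, in the diet comparison (left) and the OGT RNAi comparison (right); filled points passed the test. Tps1 at -0.79 and Treh at -0.28 are filled on the left, and Glut4EF at -0.43 is the filled point on the right.

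Markers of other cell types moved with diet. Of 46 tested markers in the 7 cell type lists, chosen with earlier results of these data known, edgeR called 15. DESeq2 called 13 of the 44 to which it gave an adjusted p. The shares over all genes were 6.47% in edgeR and 5.63% in DESeq2. All 5 tested fat body markers of 8 were called lower on the sugar diet by edgeR, with a median log2 change of -1.09. The summed level over 8 genes was 1538 to 1580 CPM against 2486 to 2575 CPM on the control diet. Fbp1 and Fbp2 of this list were at 0 in the sugar diet libraries and near 0 in the controls. Fbp1 was also at 0 in the OGT RNAi libraries, where the fat body sums were 2264 to 3130 CPM. The markers that fell included the larval serum protein gene Lsp1beta, at 18.0 against 46.2 CPM, and the fatty acid synthase gene FASN1, at 428 against 1010.1 CPM. Of 9 tested muscle markers edgeR called 5 higher, and 0 of the 9 changes were below 0. The muscle sums were 31049 to 36506 CPM against 24954 to 25456 CPM. Of 3 tested gut markers edgeR called 2 lower, with sums of 55.4 to 67.6 CPM against 162 to 164 CPM. It called 2 of 8 glial and 1 of 6 haemocyte markers higher. No marker of neurons (8 tested) or of trachea and epidermis (7 tested) was called. The part of these shifts in the Tps1 and Treh changes, or in the diet changes of the list genes given next, was not tested.

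The other genes that make, store and use the same sugars were read from 4 lists. These lists were chosen with earlier results of these data known, and the glycogen list was corrected after the data were seen. The lists as such were not tested, so their counts are descriptions. Of 20 tested genes in them edgeR called 9 on the sugar diet and DESeq2 called 5, namely UGP, Pgm1, Pgm2a, AGBE and Gyg. DESeq2 gave 17 of the list genes an adjusted p. Over all genes edgeR called 6.47%, and DESeq2 called 5.63% of the 6087 to which it gave an adjusted p. Of 8 genes that handle glycogen and UDP-glucose, 7 were tested, and on the sugar diet edgeR called 5 lower and 1 higher. Their median log2 change was -0.58, against 0.00 for all tested genes. UGP, which makes the UDP-glucose that Tps1 uses, fell from 186 ± 0.951 to 102 ± 1.48 CPM (SD, n = 2 in each group), a log2 change of -0.87 (edgeR, adjusted p = 3.71e-06). Pgm1, phosphoglucomutase, fell by 0.71 on the log2 scale (edgeR, adjusted p = 0.000414), and Pgm2a, listed as a second one, fell by 0.58 (edgeR, adjusted p = 0.0125). The glycogen branching enzyme gene AGBE fell by 0.61 (edgeR, adjusted p = 0.00473). GlyP, glycogen phosphorylase, fell by 0.27 (edgeR, adjusted p = 0.0435). Gyg, glycogenin, the protein primer of glycogen, rose from 231 ± 11.8 to 308 ± 30.6 CPM, a log2 change of 0.41 (edgeR, adjusted p = 0.00627). GlyS, glycogen synthase, had -0.22 and did not pass (edgeR, adjusted p = 0.179). Pgm2b, at 0.0988 CPM and 0 CPM, was not tested.

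The calls of UGP and Pgm1 were kept in all 11 alternatives. Those of AGBE and Pgm2a were kept in 9, that of Gyg in 7 and that of GlyP in 6. Among other settings, leaving out control diet replicate 2 ended the calls of AGBE, Pgm2a, GlyP and Gyg. Leaving out control diet replicate 1 ended those of GlyP and Gyg. With library totals alone Gyg had 0.21 (edgeR, adjusted p = 0.207), against the median of -0.20 for all genes.

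CG5171 and CG5177 encode enzymes annotated as trehalose phosphate phosphatases. CG5171 fell on the sugar diet from 8.08 to 3.75 CPM, a log2 change of -1.11 (edgeR, adjusted p = 0.0263), and CG5177 had 0.17 (edgeR, adjusted p = 0.561). The CG5171 call was kept in 6 of the 11 alternatives, with log2 changes from -1.31 to -0.94. Settings that ended it included leaving out sugar diet replicate 2, control diet replicate 1 or control diet replicate 2. Of the hexokinase genes, whose products phosphorylate incoming glucose, 2 of 4 were tested. Hex-C fell from 20.5 to 11.8 CPM, a log2 change of -0.79 (edgeR, adjusted p = 0.00898), and Hex-A had -0.14 (edgeR, adjusted p = 0.372). The Hex-C call was kept in 8 of the 11 alternatives, with log2 changes from -0.99 to -0.77. Settings that ended it included leaving out control diet replicate 1 or control diet replicate 2.

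Of 22 other genes of the sugar transporter family 9 were tested. Only CG10960 was called, falling from 63.5 to 46.2 CPM, a log2 change of -0.45 (edgeR, adjusted p = 0.0217). Its call was kept in 5 of the 11 alternatives, with log2 changes from -0.65 to -0.35. Settings that ended it included leaving out sugar diet replicate 1, control diet replicate 1 or control diet replicate 2. The changes of 8 of the 9 were below 0, with a median of -0.25, against 49.4% of all tested genes and a median of 0.00. The gene sut4, a relative of sut1 to sut3, and Glut3 were at 0 in all 4 diet libraries.

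**Figure D3:**
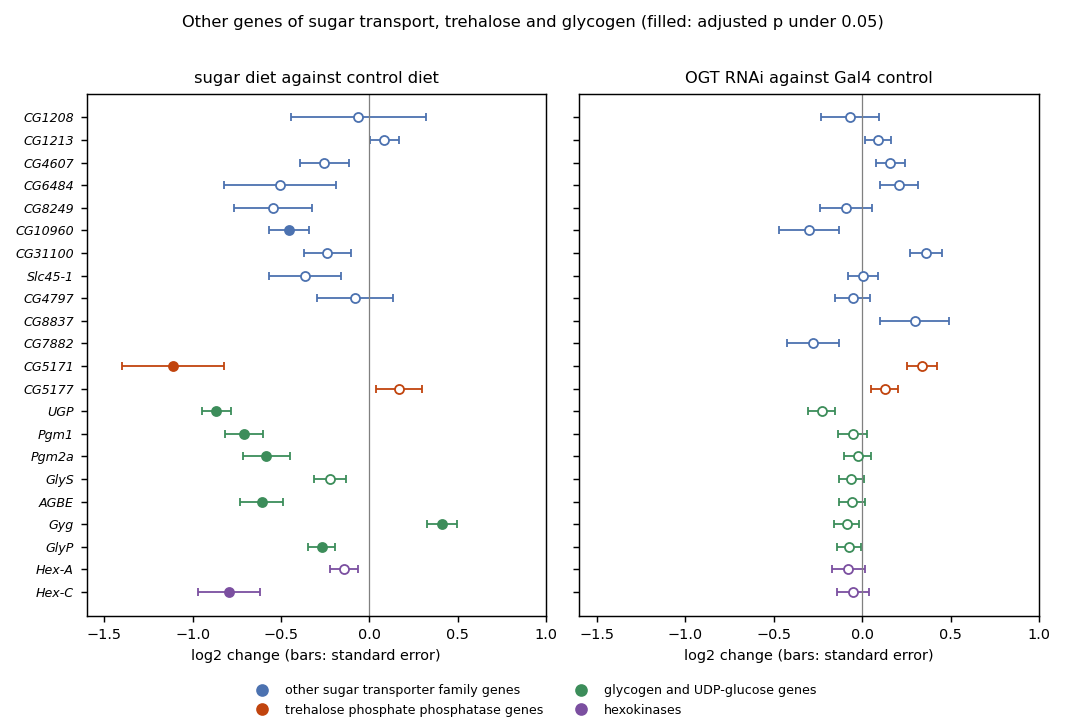
Log2 change (x axis) with its standard error for the tested genes of the 4 other lists, coloured by list, in the diet comparison (left) and the OGT RNAi comparison (right); filled points passed the test. On the left 5 of the 7 glycogen and UDP-glucose genes are filled below 0 and Gyg is filled above 0, and no point on the right is filled.

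The second experiment asked what lowering OGT in sweet taste neurons changes in flies on sugar. Glut4EF was the only member called, 1.35-fold lower with OGT RNAi, and the trehalose enzymes did not pass the test. Of the 4 tested transporters edgeR and DESeq2 called 0, with 0 at an unadjusted p under 0.05 in edgeR. Over all genes 1.27% of 9399 were called, 98 higher and 21 lower, so that 0.223% were called lower. Of the 9399, 1211 had an unadjusted p under 0.05 in edgeR. The groups did not overlap for 1 of the 7 tested members, Glut4EF, against 5.54% of all tested genes.

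Glut4EF stood at 340.3, 406, 346, 399.5 and 347 CPM in the OGT RNAi libraries and at 500.0, 415, 489.7 and 578 CPM in the Gal4 controls. The highest OGT RNAi library was just under the lowest control. The log2 change was -0.43 ± 0.0921 (SE), with a 95% interval of -0.63 to -0.23 (edgeR, adjusted p = 0.0339). The direction held in 16 alternatives (-0.52 to -0.35), and the call in 7 of them, with adjusted p from 0.00134 to 0.154. It was lost without OGT RNAi replicate 1 (0.0633), 3 (0.0707) or 5 (0.0514), and without Gal4 control replicate 1 (0.101), 3 (0.09) or 4 (0.132). It was also lost with the replicate block (0.154), with limma on TPM (0.092) and with effective lengths (0.0656). In the authors' deposited table Glut4EF had an effect of -0.272 on the natural-log scale and a q-value of 0.0954, above 0.05.

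Tps1 stood at 115, 95.1, 118, 134 and 126 CPM with OGT RNAi and at 123, 136, 144 and 130.1 CPM in the controls. The groups overlapped, and the log2 change of -0.18 (95% interval -0.37 to 0.01) did not pass the test (edgeR, adjusted p = 0.437). Treh stood at 514, 549, 541, 542 and 497 CPM with OGT RNAi and at 491, 491, 539 and 470.5 CPM in the controls, and its log2 change was 0.09 (95% interval -0.05 to 0.23; edgeR, adjusted p = 0.638). Whether the Tps1 and Treh changes differ between the 2 comparisons was not tested.

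The transporters overlapped between the groups as well. Tret1-1 was at 107, 129, 116, 139.6 and 109 CPM with OGT RNAi and at 123, 122, 108 and 118 CPM without, a log2 change of 0.03 (95% interval -0.15 to 0.21; edgeR, adjusted p = 0.937). Glut1 was at 128, 139.8, 116, 102 and 103 CPM with OGT RNAi and at 125, 116, 111 and 115 CPM without, a log2 change of 0.01 (95% interval -0.18 to 0.21; edgeR, adjusted p = 0.972). These intervals leave changes of about 0.2 on the log2 scale in either direction possible.

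sut1 lay between 21.9 and 28.7 CPM with OGT RNAi and between 20.9 and 27.7 CPM in the controls (log2 change 0.11; edgeR, adjusted p = 0.714). sut2 lay between 1.97 and 5.54 CPM and between 2.70 and 4.15 CPM (log2 change 0.14; edgeR, adjusted p = 0.858).

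In the 4 other lists edgeR called 0 of 22 tested genes with OGT RNAi, with 3 at an unadjusted p under 0.05, and DESeq2 called 2 of them, CG31100 and CG5171. Over all genes edgeR called 1.27% of 9399, with 1211 at an unadjusted p under 0.05. DESeq2 called 2.83% of all genes to which it gave an adjusted p. The genes with the smallest p in each of these lists were CG31100 (log2 change 0.36, adjusted p = 0.0684), CG5171 (0.34, adjusted p = 0.0699), UGP (-0.23, adjusted p = 0.212) and Hex-A (-0.08, adjusted p = 0.785). CG5171 was at 34.3 ± 2.80 CPM (SD, n = 5) with OGT RNAi and 27.2 ± 2.62 CPM (SD, n = 4) in the controls, and its groups did not overlap. The median log2 change of the 7 tested glycogen and UDP-glucose genes was -0.06, and all 7 were below 0, against 49.2% of all tested genes. The median was 0.00 for the 11 tested transporter family genes. Of 48 tested markers in the 7 cell type lists edgeR called 0, with 6 at an unadjusted p under 0.05, and DESeq2 called 1, ebony. The median log2 changes of the 7 lists ran from -0.51 (gut) to 0.01 (trachea and epidermis), with -0.12 for the fat body. The fat body sums were 2264 to 3130 CPM with OGT RNAi and 2930 to 3557 CPM in the controls. The gut sums were 113 to 240 CPM with OGT RNAi and 212 to 287 CPM in the controls.

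Counts per transcript rest on how kallisto divided reads among overlapping transcripts of a gene. Of the 43 transcripts 24 passed the filter in the diet comparison and 31 in the OGT RNAi comparison. edgeR called 0 of them in either, with 4 and 3 at an unadjusted p under 0.05. The 4 for diet were Tps1-RA, Glut1-RV, Treh-RF and Tret1-1-RB, and the 3 for OGT RNAi were Glut1-RB, Glut4EF-RB and Treh-RF. The background was 0.0% of 17390 transcripts for diet and 0.00521% of 19193 for OGT RNAi. An unadjusted p under 0.05 was found for 1457 of the 17390 and 1388 of the 19193. DESeq2 called 1 in each, Tps1-RA for diet (log2 change -0.80, adjusted p = 1.74e-05) and Glut4EF-RB for OGT RNAi (-0.43, adjusted p = 0.000203). Tps1-RA is the only transcript of Tps1, so its counts are those of the gene and add no separate result. DESeq2 called 5.74% of all tested transcripts for diet and 2.27% for OGT RNAi. The authors' deposited table gave the same pair, with q-values of 8.07e-06 and 0.0282.

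Tret1-1 has 2 transcripts with separate start sites. Tret1-1-RB, from the start site nearer to Tret1-2, had 2.22 and 6.60 estimated counts on the sugar diet and 36.2 and 30.0 on the control diet. Its share of the TPM of Tret1-1 was 0.686 and 1.64% on the sugar diet and 5.50 and 4.64% on the control diet. Both sugar diet shares were below both control shares. The log2 change in level, -2.36, rests on few counts and did not pass the test (edgeR, unadjusted p = 0.0434, adjusted p = 0.564). In the second experiment the share ran from 9.49 to 18.1% with OGT RNAi and from 10.7 to 17.7% in the controls.

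Glut1 has 20 transcripts from 2 start sites. The site at 959660, used by 15 of them, held 64.1 ± 1.80% of the TPM on the sugar diet, 61.9 ± 2.26% on the control diet, 71.4 ± 2.74% with OGT RNAi and 70.5 ± 3.73% in the Gal4 controls. The ranges of this start site share overlapped within each experiment. Some single transcripts did not overlap by diet. Glut1-RV held 5.03 to 5.33% on the sugar diet and 8.38 to 9.70% on the control diet. Its log2 change in level of -0.98 did not pass the test (edgeR, unadjusted p = 0.0399, adjusted p = 0.545). The Glut1-RR share was also lower on the sugar diet, and those of Glut1-RP and Glut1-RT were higher. Other transcripts stood further apart between the experiments. Glut1-RD had 0 counts in all 4 diet libraries and 179 to 470.0 counts in the 9 libraries of the second experiment. Glut1-RM held 26.5 to 32.5% of the TPM in the diet libraries and 2.78 to 7.54% in the others. Kit, input and genotype cannot be told apart here.

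Glut4EF has 8 transcripts, of which Glut4EF-RB had the largest mean share of the TPM in each group, with 51.5 to 58.1% in the diet libraries and 24.9 to 35.8% in the second experiment. Glut4EF-RA and Glut4EF-RG were given identical counts in every library. Glut4EF-RE had at most 59.5 counts in the diet libraries and 385 to 855 counts in the second experiment. For Treh, 3 transcripts held most of the TPM. Treh-RA took 44.6 and 23.3% of the TPM in the 2 control diet libraries, where Treh-RC took 14.7 and 28.4%. In the 2 sugar diet libraries Treh-RA took 32.7 and 30.4% and Treh-RC 26.3 and 24.7%, between the control values.

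**Figure D4:**
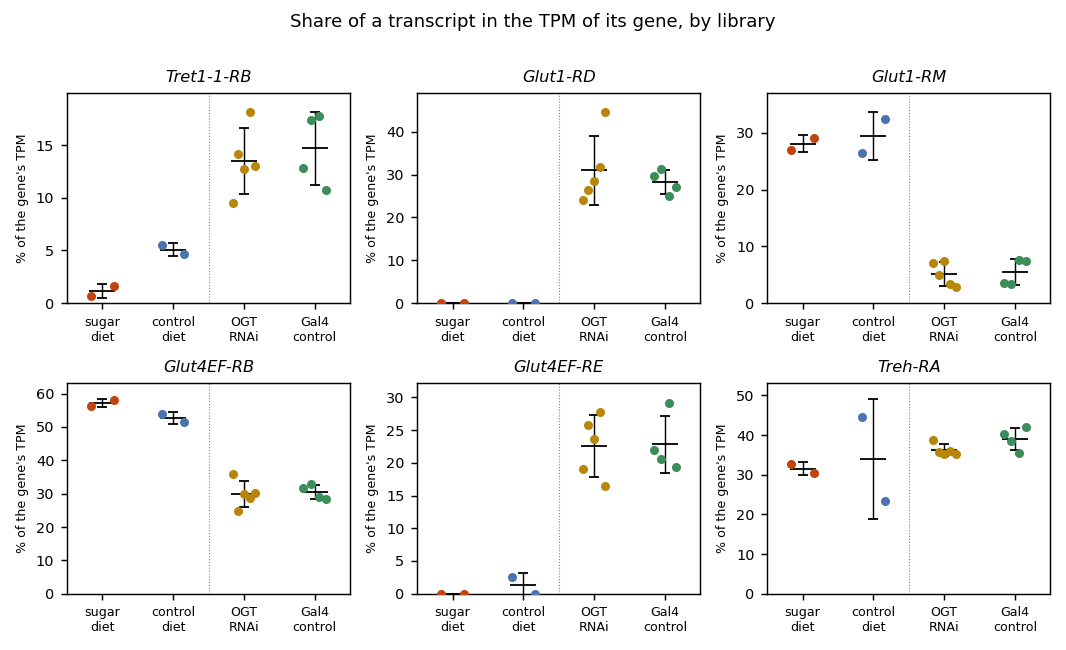
Share of 6 transcripts in the TPM of their gene (y axis, percent, from 0), 1 point per library, with the group mean and SD in black and a dotted line between the experiments. Tret1-1-RB lies at 0.686 and 1.64% in the sugar diet libraries and Glut1-RD at 0 in all diet libraries.

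On the BDGP6 assembly all 9 genes lie on the plus strand. Tret1-1 (2R:11665768-11674782) is followed after 1152 bases by Tret1-2 (2R:11675935-11678014). sut1 (2R:8082976-8087151), sut2 (2R:8087396-8089297) and sut3 (2R:8089482-8091297) are 244 and 184 bases apart. Glut1 lies at 3L:914074-993788, Treh at 2R:21074018-21088945, Tps1 at 2L:4388327-4392778 and Glut4EF at 3R:9874681-9995364. These neighbours, close relatives of each other, differed widely in level, and reads that fit more than 1 of them could have been divided between them.

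The genes whose levels were most like those of a member were found by Pearson's r over all 13 libraries among 6415 genes, each experiment centred on its own mean. For Tps1 they were Galk, galactokinase (r = 0.965), CG16836 (0.963) and CG7322 (0.958), which had log2 diet differences of -1.41, -2.03 and -1.06. For Treh they were Rpb8 (0.903), Lsp1beta (0.894), which is also in the fat body list, and l(2)SH0834 (0.876). For Tret1-1 they were Odc1 (0.891), betaTub97EF (0.881) and CG5819 (0.823). The 13 points share the diet and genotype contrasts and the library scaling, so these values are descriptions.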

How the data were processed

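RNA from pooled proboscises had been sequenced in 13 libraries of 4 groups. Per the submitters' processing notes, reads were trimmed with Trimmomatic 0.22, quantified with kallisto 0.43 and tested with sleuth, without a version. The authors deposited estimated counts per transcript, not normalized, and TPM, scaled within each library. Effects in the authors' deposited result tables are natural logs (ln), each beside its p-value and q-value. The build, annotation release, strand setting and model are not given in the sources used here.

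Estimated counts were summed per gene and rounded (13893 genes). A set of 52 targets without a gene identifier, 0.042 to 0.0569% of counts, was left out. Main test: edgeR 4.0.16 in R 4.3.3, quasi-likelihood, TMM scaling, filterByExpr (minimum count 10, total 15), fitted over all genes of each pair of groups, with Benjamini-Hochberg adjustment and a threshold of 0.05. Alternatives used DESeq2 1.42.0 and limma 3.58.1 (log2(TPM + 0.5)), library totals alone, no filter, effective lengths, 1 fit over all groups, a replicate block and each library left out. The script was tested on simulated data. CPM are TMM-normalized. Totals were 5632598 and 6481195 (sugar diet), 7559788 and 8105908 (control diet), 8183507 to 13884994 (OGT RNAi) and 11067627 to 13467476 (Gal4 control). No replicates agreed within sampling noise (chi-square per degree of freedom 7.24 to 36.4). Replicates are labelled biological, without saying what was separate, so each p-value reflects only how these samples spread, which may be technical.

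Members and lists were chosen with earlier results of these data known. Named genes were all members, every called gene of the pathway lists or the one with the smallest p where none was called, and the 3 genes most like Tret1-1, Treh and Tps1 (mean CPM of 5 or more in both experiments, log2(CPM + 0.5)). Other genes given with values (sxc, list genes that did not pass, single markers) were chosen after their values were seen.

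The glycogen list was corrected after the data were seen. It had first held CG6767 under the name of a phosphoglucomutase and CG10202 as Pgm2a, whereas the reference names give Prps and Pgm2b. Pgm2a (Pmm45A in the files) replaced CG6767. Both versions have 7 tested genes, with 1 higher and 5 lower on the sugar diet and medians of -0.58 as corrected and -0.61 as first entered. A further gene of this list is not reported here and is in none of these counts. Prps itself had a log2 diet change of -0.86 (edgeR, adjusted p = 5.33e-06).

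Positions come from the BDGP6 annotation and were the same in the authors' table for the 7 members it lists. The planned search for motifs in promoters was not run, since no genome was used here.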

Additional observations from a re-analysis of the deposited data

How the results depend on the processing

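On the sugar diet, where 2 members were called, 1 was called with DESeq2, with limma on TPM, with 1 fit over all 4 groups and with the replicate block, and 4 with library totals alone. Leaving out 1 library gave 1 to 2. With OGT RNAi, where 1 was called, 0 were called with effective lengths, with limma on TPM and with the replicate block, and 0 to 1 when 1 library was left out. For transcripts DESeq2 called 1 in each comparison, where edgeR called 0.

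The replicate numbers showed no clear pairing of the samples (correlations of same-numbered deviations 0.0048 for diet and -0.249 to 0.165 for OGT RNAi). With 2 libraries a group the deviations mirror each other, so the diet value cannot show whether the samples were paired. With the replicate block 728 genes were called for diet and 63 for OGT RNAi. Treh had an adjusted p of 0.0502 and Glut4EF of 0.154, and no other gene call on a member changed.

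Signs turned in 13 cases, none of them called. Glut4EF on the sugar diet had -0.071 with library totals alone, where the median of all genes moved to -0.20. With OGT RNAi, sut2 had -0.046 with the replicate block and Tret1-1 had -0.0011 with limma on TPM. The others came from leaving out 1 library with OGT RNAi. Glut1 then ranged from -0.056 to 0.050, with -0.020 without OGT RNAi replicate 1, -0.0057 without Gal4 control replicate 2 and -0.011 without Gal4 control replicate 3. Tret1-1 ranged from -0.044 to 0.064, with -0.010 without Gal4 control replicate 3. The range was -0.029 to 0.27 for sut2. It was -0.27 to 0.085 for Tret1-1-RB, with 0.077 without Gal4 control replicate 2 and 0.0041 without Gal4 control replicate 3. The cause was not tested.

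Over all genes the diet count of 571 was 343 with DESeq2, 949 with library totals alone (101 higher, 848 lower), 194 with limma on TPM (64 higher, 130 lower), 300 with 1 fit over all 4 groups and 195 to 938 with 1 library left out. The OGT RNAi count of 119 was 266 with DESeq2 (165 higher, 101 lower), 165 with 1 fit over all 4 groups (116 higher, 49 lower) and 42 to 264 with 1 library left out. Of the 36 places in the order of levels, 27 held in CPM. Tret1-2 and sut3 had too few counts to be tested, and 2 libraries a group limit the diet intervals.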
